A study of Mus musculus with 4 samples.

Results

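This section describes which genes differed with 1 sign, in both genotypes studied, between LSK cells sorted 8 days after 5-fluorouracil (5FU) and LSK cells sorted without it. All 4 Affymetrix expression arrays of the series enter, with 1 array in each group, the Ctrl and AMKO genotypes each at basal and at day 8. Per the labels, the mice were C57/B6 males of 4 months, the day 8 mice had received 150 mg/kg of 5FU, and the basal groups are labelled day 0. LSK cells are bone marrow cells without lineage markers that carry Sca-1 and c-Kit, and they were collected by flow sorting and frozen before RNA extraction. What AMKO abbreviates, how many mice gave the cells of an array and how the Ctrl mice relate to the AMKO mice are not in the labels, so both names serve here as genotype labels alone. Of 22180 genes that a probe set of 1 gene measured, 14061 reached the floor on low values, a log2 value of 5.475 in at least 1 array. Of those, 276 genes were at least 2-fold higher at day 8 in Ctrl and in AMKO, and 279 were at least 2-fold lower in both.

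5FU is a pyrimidine analog whose metabolites block thymidylate synthase and enter RNA and DNA, so that it kills cells that are dividing. Most hematopoietic stem cells rest in the basal marrow and survive it, and the loss of dividing progenitors is followed by a phase in which surviving stem and progenitor cells divide to rebuild the blood. The LSK gate holds long-term stem cells together with multipotent progenitors. A gene's level in the sorted bulk can therefore move with the make-up of the gate as well as with expression in each cell, and in such bulk RNA fewer cells of a type and less RNA per cell cannot be told apart.

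Single arrays stood apart in ways that touch the results below. Genes of mature blood cells were high in the Ctrl day 8 array alone: the summed linear signal of 24 mature neutrophil genes was 15.1 on the log2 scale there and 11.41 to 11.61 in the other arrays. The summed signal of 21 B-lineage genes was 12.92 there against 10.63 to 10.88 elsewhere. Xist, the RNA of the inactive X chromosome of females, read 7.65 in that array and 3.97 to 4.41 in the others, although all arrays are labelled male. In the Ctrl basal array, 34 skeletal muscle genes summed to 12.99, against 10.96 to 11.41 elsewhere. The sort marker Kit read 11.08 to 11.87 over the arrays, whereas Ly6a, which encodes Sca-1, was not measured by a probe set of 1 gene. The ranges given for the other arrays include both AMKO arrays, so they are no check on these. The part of such signals in the differences was not tested.

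**Figure D1:**
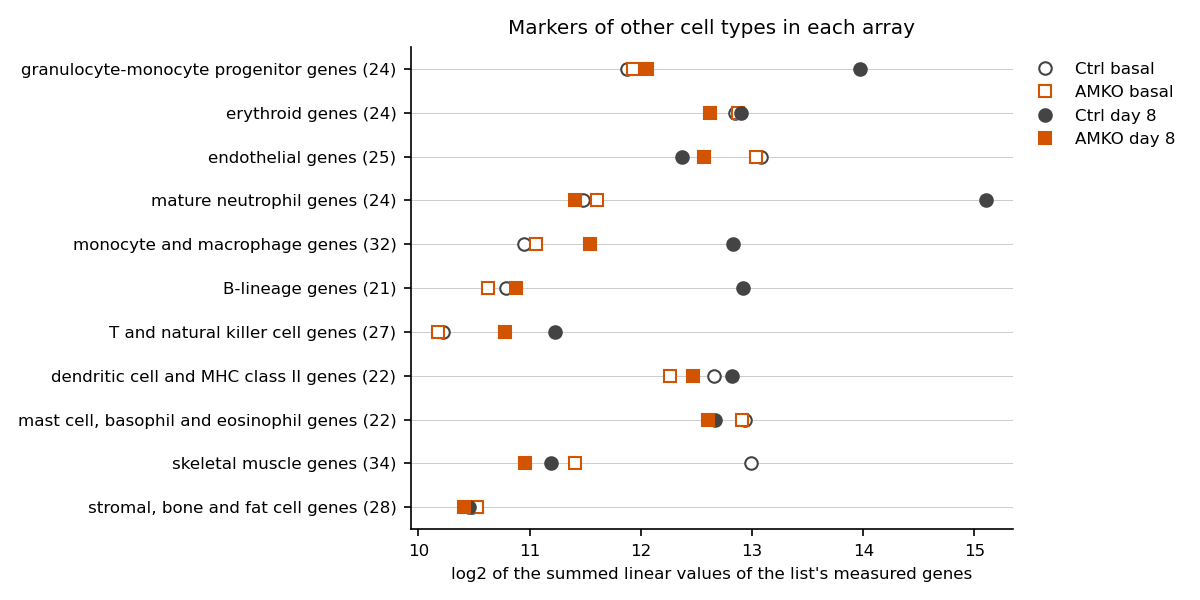
Log2 of the summed linear values of each marker list's measured genes, for the 4 arrays; open symbols are basal, filled symbols day 8, circles Ctrl and squares AMKO. The Ctrl day 8 array lies far to the right for mature neutrophil genes (15.1), and the Ctrl basal array for skeletal muscle genes (12.99).

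All values below are the authors' log2 values, and where 4 are given, the basal arrays of Ctrl and AMKO come first and their day 8 arrays follow in the same order. Differences are day 8 minus basal on the log2 scale, given for Ctrl and then for AMKO, and a difference of 1 is 2-fold. The genes at least 2-fold higher in both genotypes were 1.96% of the genes above the floor, and those at least 2-fold lower were 1.98%. Differences of any size with 1 sign were more common: 5207 genes (37%) were higher in both genotypes, 4734 (33.7%) were lower in both, and 4120 had no common sign. There were 7 genes that differed by at least 2-fold in opposite directions. The median over all 14061 genes was 0.01 in Ctrl and 0.03 in AMKO, and centring each array on its own median would add 0.04 and 0.11 to these.

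**Figure D2:**
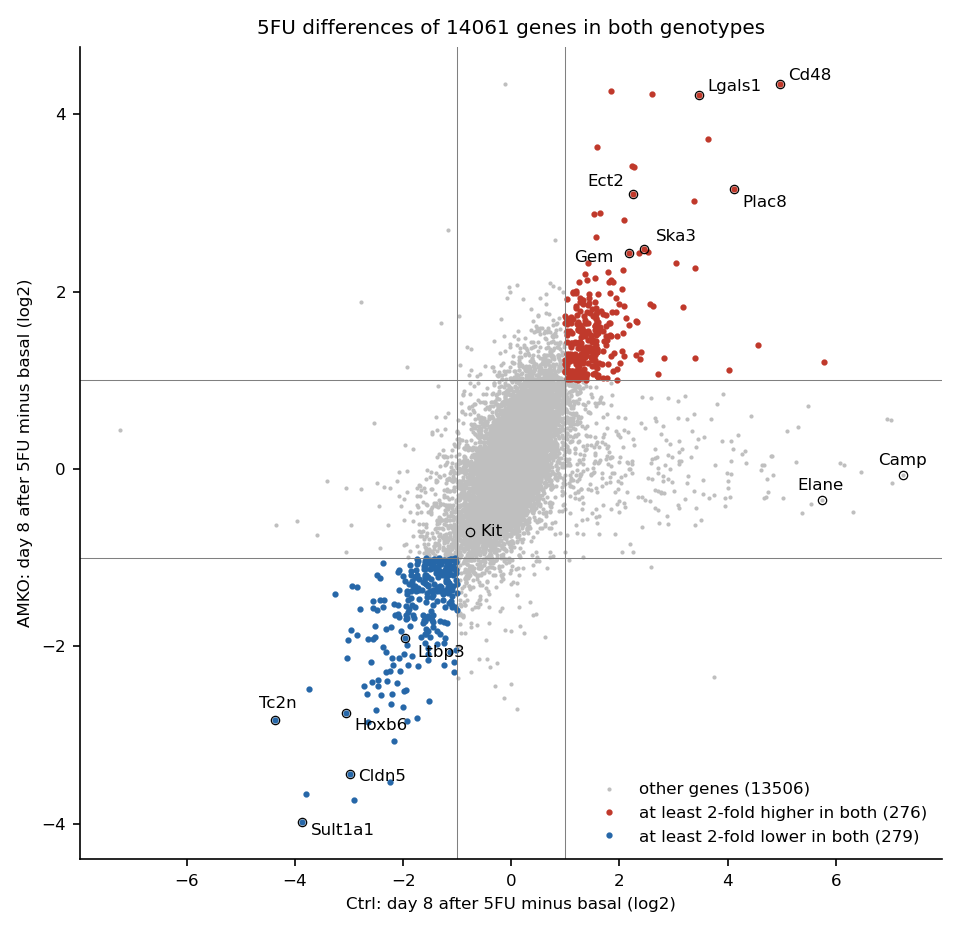
Each point is 1 of 14061 genes, with its log2 difference (day 8 minus basal) in Ctrl on the horizontal axis and in AMKO on the vertical axis. The 276 red and 279 blue points are at least 2-fold higher or lower in both genotypes, beyond the thin lines; the points far to the right at an AMKO difference near 0, among them Camp and Elane, are high in the Ctrl day 8 array alone.

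The 276 higher genes had median differences of 1.42 and 1.43, and the genotypes lay within 0.5 of each other for 203 of them and more than 1 apart for 19. The larger difference was in AMKO for 141 genes and in Ctrl for 133. In all, 48 were at least 3-fold and 18 at least 4-fold higher in both genotypes. Of the 276, 235 were at or above the floor in every array, while for 18 the basal values lay below it in both genotypes and for 23 in 1 genotype, so that the sizes of those differences are uncertain. The 279 lower genes had medians of -1.56 and -1.38, the larger difference was in Ctrl for 170 genes and in AMKO for 106, and 70 were at least 3-fold and 32 at least 4-fold lower in both. Of these, 202 were at or above the floor in every array, 54 lay under it in both day 8 arrays and 23 in 1. Just inside the 2-fold limit were Cdt1 (1.0 and 1.18) and Clcn6 (-1.0 and -1.30), and just outside it Adk (0.99 and 1.12) and Abcb1a (-1.20 and -0.99).

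With 1 array per group, both genotypes served as the 2 replicates of each time. An exact permutation test of 2 arrays against 2 cannot give a two-sided p below 0.333. The additive limma fit, with terms for genotype and 5FU and 1 residual degree of freedom, called 0 of 14061 genes (0%) at a Benjamini-Hochberg adjusted p of 0.05, with 3907 genes at an unadjusted p under 0.05. Limma's adjusted p lay between 0.0697 and 0.181 for the 276 higher genes and between 0.0697 and 0.0997 for the 279 lower genes. With robust estimation of the prior variance, limma gave 265 of the higher and 273 of the lower genes an adjusted p under 0.05. The genes were chosen for differences that the genotypes share, and this fit takes the disagreement of the genotypes as its error. The p-values therefore add no separate support, and the words higher and lower are used below for differences that limma with its default prior did not call.

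Genes of cell division made up 89 of the 138 higher genes that belonged to any of the 61 lists. The lists were chosen with earlier results of these data known, and division genes are 240 of their 1515 genes above the floor. Over all genes above the floor, 1.96% were at least 2-fold higher in both genotypes. Of 240 genes in 9 lists of division functions above the floor, these 89 were at least 2-fold higher in both genotypes, which is 32.2% of all 276, and none was lower by as much. Any difference upward in both genotypes was seen for 220 of the 240. For 105 genes in the 4 lists that cover mitosis itself, 63 were at least 2-fold higher, 102 were higher by any amount, and the medians were 1.25 and 1.23.

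Mitotic entry is driven by cyclin B with its kinase Cdk1, and 14 of 23 genes of entry and of the spindle assembly checkpoint were at least 2-fold higher in both genotypes, with all 23 higher by some amount. Cdk1 read 8.88, 8.91, 10.45 and 10.54. Mastl, the Greatwall kinase that restrains the phosphatase opposing Cdk1, read 6.81, 6.24, 8.60 and 8.46. In both, the genotypes lay closer to each other than the times did, which the choice of genes by a shared 2-fold difference favours. Aurka, the spindle pole kinase Aurora A, differed by 1.55 and 1.57, and the checkpoint kinase Ttk by 1.55 and 1.61. The limma standard error was 0.13 for each.

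Kinetochore genes, whose products tie chromosomes to spindle microtubules, had medians of 1.19 and 1.26, and 16 of 31 were at least 2-fold higher. Ska3, of the complex that holds kinetochores on microtubule ends, read 6.03, 6.12, 8.48 and 8.60, a difference of more than 5-fold in both genotypes. Other genes of the outer kinetochore in this set included Spc24 (1.66 and 1.78), Nuf2 (1.56 and 1.75), Ndc80 (1.59 and 1.35), Knl1 (1.44 and 1.97) and Ska1 (1.57 and 1.57). Of the inner kinetochore, Cenpw read 6.86, 6.89, 8.68 and 8.87. Cenpe, the kinesin that moves chromosomes to the metaphase plate, read 7.02, 6.90, 8.84 and 8.54. Each of these genes was higher in both genotypes, as the rule that chose them requires.

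The kinesins and cytokinesis proteins were the mitosis list with the highest share: 22 of 29 were at least 2-fold higher and all 29 were higher by some amount, with medians of 1.27 and 1.37. Ect2, the exchange factor of the cleavage furrow, read 6.98, 6.54, 9.24 and 9.64. Kif20a, the midzone kinesin, read 6.70, 6.71, 8.64 and 8.64, so that its differences of 1.94 and 1.93 were nearly the same. A pair of GTPase-activating proteins, Arhgap11a (2.33 and 1.66) and Arhgap19, which read 6.15, 5.96, 8.21 and 8.2, were among the higher genes as well. Condensin, cohesin and passenger complex genes included Birc5, which encodes survivin and read 8.07, 7.84, 9.61 and 9.72, and 11 of 22 of that list were at least 2-fold higher. Other division genes differed less. Among 17 genes of the anaphase-promoting complex (medians 0.29 and 0.49) the E2 enzyme Ube2c was the one at least 2-fold higher in both, and among 24 centrosome genes (medians 0.40 and 0.63) these were Stil, Sass6 and Haus6.

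For DNA replication, 50 of 52 genes were higher in both genotypes and 12 of them by at least 2-fold, and the medians were 0.86 and 0.88. The 12 covered the steps of initiation. Cdt1 loads the replicative helicase and geminin (Gmnn, 1.39 and 1.37) restrains it, Mcm4 and Mcm5 are helicase subunits, and Mcm10 and Ticrr help to activate it. Gins1, a subunit of the active helicase, read 7.54, 7.41, 9.15 and 9.38, and Gins2 differed by 1.48 in each genotype. Tipin, of the fork protection complex, read 8.21, 7.86, 9.76 and 10.01. Prim2, Rpa1 and Fen1, which prime, coat and process DNA at the fork, complete the 12. Pclaf, a partner of the sliding clamp PCNA, was in no list and read 7.21, 7.44, 9.25 and 9.47, a difference of 2.04 in Ctrl and 2.03 in AMKO.

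Most genes for the chromatin made during S phase were also higher. Of 15 histone, linker histone and histone chaperone genes above the floor, 13 were higher in both genotypes and 5 by at least 2-fold. Nasp, a chaperone of linker and core histones, read 6.52, 6.65, 8.12 and 8.31, and Hmgb2, a chromatin protein of dividing cells, differed by 1.56 and 1.44. The linker histones H1f1 (1.65 and 2.89) and H1f5 (2.27 and 3.40) differed more, but at basal H1f5 was below the floor in both genotypes and H1f1 in AMKO. Histone genes are near-identical copies whose probe sets can share signal, so single histone genes are uncertain. H4c14, a histone H4 gene in no list, was lower, at 7.42, 7.81, 5.04 and 5.80. Other histone genes outside the histone list were at least 2-fold higher in both genotypes. Among them were H2ac15 (1.85 and 4.26, with AMKO basal under the floor), H4f16 (1.64 and 1.60), H4c9 (1.59 and 3.63) and H2ac20 (1.53 and 2.87). Hells, a remodeller needed for DNA methylation, differed by 1.75 and 1.61, and Lmnb1, lamin B1, by 1.24 and 1.42.

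Of 28 cyclins, their kinases and E2F factors, 22 were higher and 4 lower in both genotypes, with medians of 0.44 and 0.64, and 5 were at least 2-fold higher. Ccna2, the S and G2 phase cyclin, read 8.33, 8.34, 9.65 and 9.67, and E2f8, a late repressor of E2F targets, read 8.85, 9.04, 10.44 and 10.36. Cdkn3, Cks1b and Cks2 were the others of these 5. Against these, Ccnd2, the G1 cyclin that answers to growth factors, read 11.64, 11.65, 11.15 and 11.27 and was lower by 0.49 and 0.38. Mki67, the proliferation marker Ki-67, was already at 10.44 and 10.47 at basal and differed by 1.06 and 0.79.

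**Figure D3:**
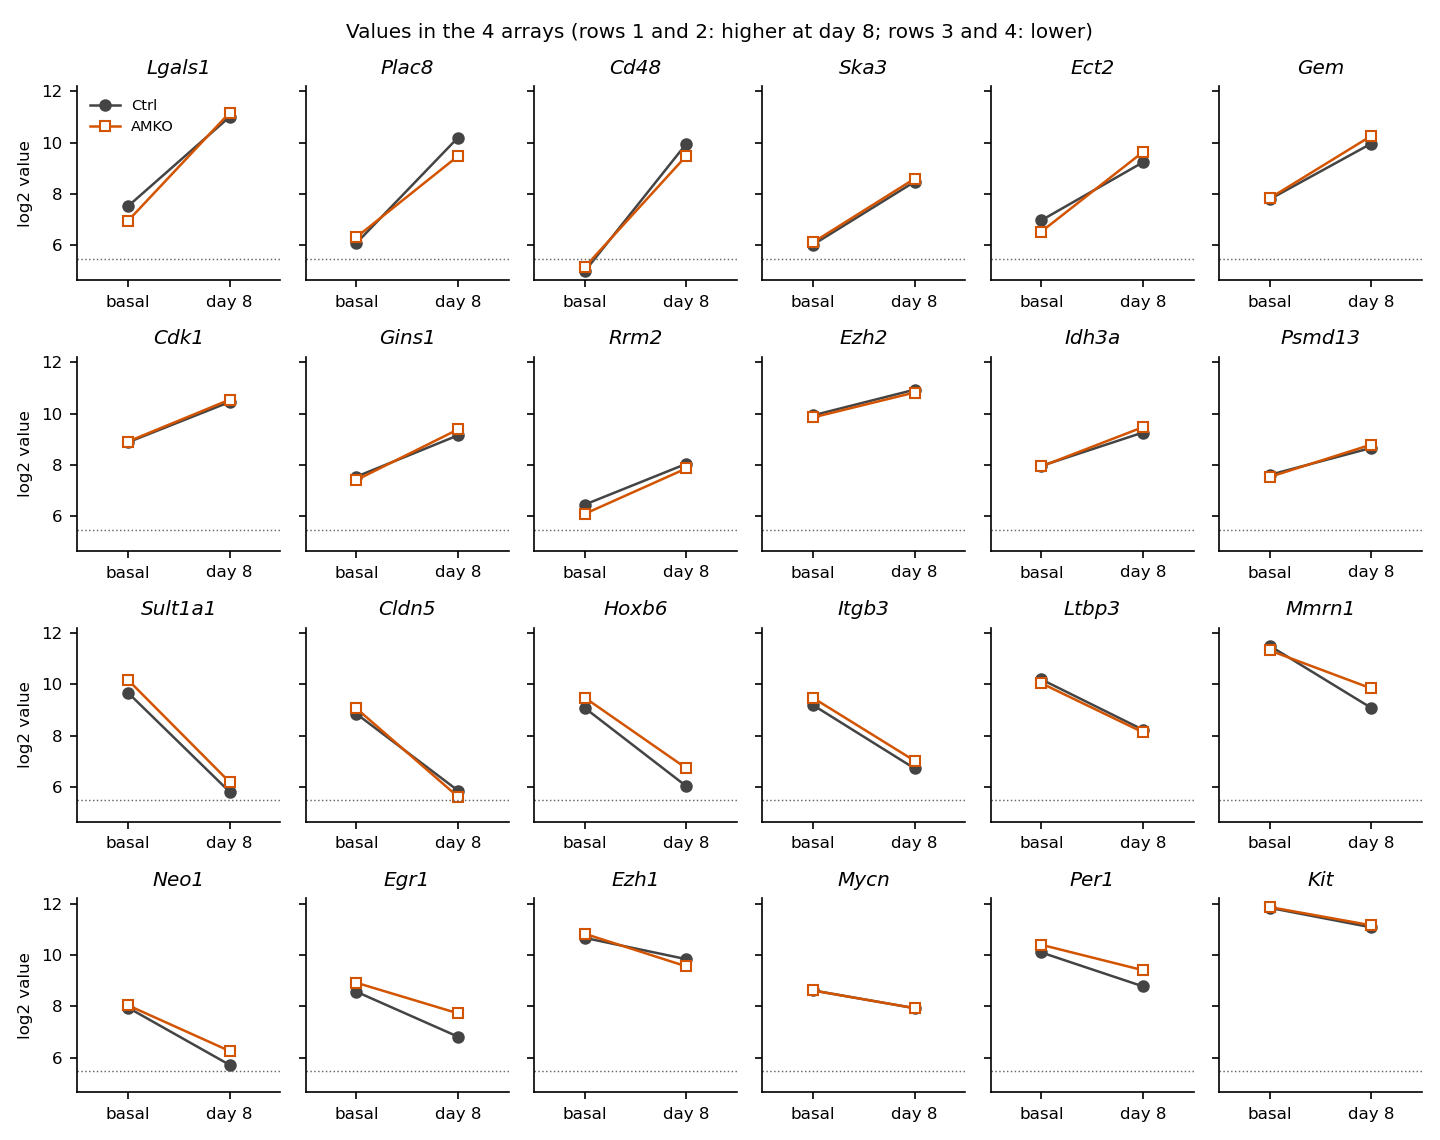
Log2 values of 24 genes in the 4 arrays, with Ctrl as filled circles, AMKO as open squares and the floor of 5.475 dotted. The 12 genes in the upper panels were higher and the 12 in the lower panels lower at day 8 in both genotypes, and for Mycn the genotypes coincide (8.62 and 7.93 in each).

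Repair genes were higher by less than replication genes. In the homologous recombination and Fanconi list, 26 of 33 were higher in both genotypes, with medians of 0.61 and 0.59, and Brca1, Rad51ap1 and Exo1 were at least 2-fold higher. Exo1, a nuclease that resects DNA ends, read 7.65, 7.81, 8.87 and 9.08. Gen1, which cuts Holliday junctions, was in no list and read 7.0, 6.73, 8.88 and 8.84. Mismatch and base excision repair genes had medians of 0.14 and 0.30 with no member at least 2-fold different in both. Of the enzymes that keep uracil out of DNA, Dut, which removes dUTP, differed by 0.68 and 0.85, and Ung, a uracil glycosylase, by 0.53 and 0.62, whereas Smug1, another uracil glycosylase, differed by -0.53 and -0.19. DNA damage checkpoint genes had medians of 0.32 and 0.45, and Chek1 was the highest of them in both genotypes by the smaller difference (0.86 and 0.79).

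The p53 target genes did not share a direction, with 12 of 31 higher, 9 lower and medians of -0.01 and 0.14, of which the Ctrl value became 0.03 after centring. Ephx1, an epoxide hydrolase, was the member at least 2-fold lower in both (-1.22 and -1.55), and Gtse1 and Ckap2, which are also genes of G2 and mitosis, were at least 2-fold higher. Cdkn1a, the p21 inhibitor of cyclin-dependent kinases, read 7.25, 7.68, 7.65 and 8.78, higher by 0.40 in Ctrl and 1.10 in AMKO, although the values at the 2 times overlapped. In the Bcl2 family, 9 of 14 were higher and 3 lower in both genotypes, with medians of 0.06 and 0.15. The pro-death Bak1 differed by 0.70 and 0.82, and of the pro-survival members Bcl2 differed by -0.65 and -0.55 and Bcl2l1 by 0.22 and 0.32.

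The promoters of higher genes were examined for the elements known to time cell cycle transcription. Genes of G2 and mitosis often carry a cell cycle genes homology region (CHR, searched as TTTGAA), which binds MuvB complexes, and a CCAAT box, which binds NF-Y, while genes of G1 and S phase often carry E2F sites (searched as TTGGCGC and, in a second form, as TTCCCGC). RefSeq promoter sequences (GRCm38.p6) with 1 listed start were at hand for 190 of the 276 higher genes, 164 of the 279 lower genes and 8966 of all genes above the floor. The 4 promoters below are those of higher genes, from the top genes and the division lists, that held both elements within the 150 bases before the start and differed most. They show how the elements are spaced in these 4 promoters alone, which were chosen for holding both. Each runs 5′ to 3′ on the gene's strand and ends at the base before the start, and capitals mark the CCAAT box and the CHR, which in Cenpw lies on the other strand.
Arhgap19: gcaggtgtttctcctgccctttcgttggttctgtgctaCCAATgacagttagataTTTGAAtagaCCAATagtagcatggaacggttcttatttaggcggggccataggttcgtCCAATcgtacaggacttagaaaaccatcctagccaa
Cenpw: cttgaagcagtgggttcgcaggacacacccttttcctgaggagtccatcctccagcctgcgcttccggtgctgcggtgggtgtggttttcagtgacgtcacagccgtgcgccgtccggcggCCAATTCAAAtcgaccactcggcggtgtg
Arhgap11a: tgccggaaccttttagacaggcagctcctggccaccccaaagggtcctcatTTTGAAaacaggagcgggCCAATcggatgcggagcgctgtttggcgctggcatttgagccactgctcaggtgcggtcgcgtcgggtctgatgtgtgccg
Nasp: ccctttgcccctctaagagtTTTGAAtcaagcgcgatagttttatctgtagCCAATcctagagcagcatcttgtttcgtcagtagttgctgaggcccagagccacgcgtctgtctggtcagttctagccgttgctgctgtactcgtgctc

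These stretches lie on the minus strand at chr19:41802085-41802234 (Arhgap19), chr10:30200541-30200690 (Cenpw), chr2:113848662-113848811 (Arhgap11a) and chr4:116627952-116628101 (Nasp). The Arhgap19 stretch held 3 CCAAT boxes, with the CHR between the first and the second. In Cenpw the CCAAT box and the CHR on the other strand overlap by a base, and the CCAAT box begins 29 bases before the start. In Arhgap11a the CHR begins 99 bases and the CCAAT box 81 bases before the start, and in Nasp 130 and 99. The Arhgap11a stretch also holds the E2F letters TTGGCGC, which are not marked.

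Over the 250 bases before the start and both strands, TTTGAA was found in 25.3% of promoters of higher genes, 11.6% of those of lower genes and 10.9% of all. CCAAT was found in 54.2%, 26.8% and 36.2%. Both elements together were held by 15.8% of higher genes against 4.06% of all, and by 30.3% of the 66 higher genes that belong to a division list. Higher genes in no division list held both in 8.06% of 124 promoters. Division genes that were not 2-fold different in both genotypes held both in 12.4% of 105 promoters. In these, TTTGAA was found in 15.2% and CCAAT in 51.4%, so the CCAAT box in particular was also frequent in division genes outside the higher set. The E2F letters showed another distribution. They were in 7.37% of promoters of higher genes and 9.71% of all, but in 33.3% of 105 division genes that were not 2-fold different in both genotypes, against 10.6% of the division genes that were. The E-box CACGTG (6.32% of higher genes, 8.14% of all), the AP-1 site TGACTCA (2.63% and 3.08%) and the GATA letters AGATAA (7.37% and 6.16%) stood near the level of all promoters. The median G and C content was 56.4% for promoters of higher genes, 59.4% for lower genes and 59.2% for all, and its part in these shares was not tested. A match is a run of letters and not a shown binding site.

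**Figure D4:**
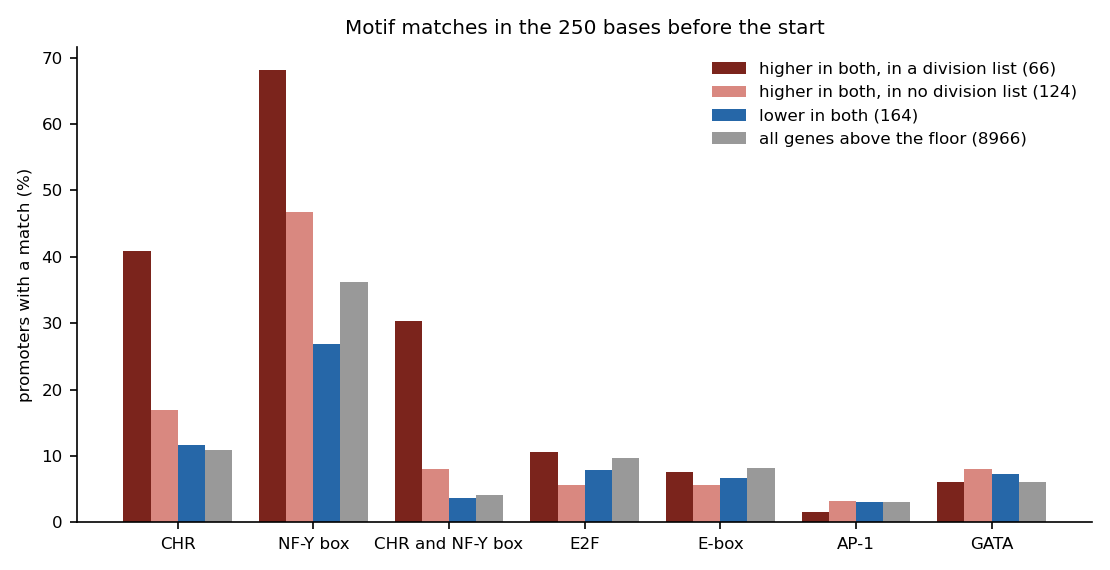
Percent of promoters with a match in the 250 bases before the start, for each element and for CHR and NF-Y box together, in 4 gene sets whose number of promoters stands in the legend. The dark red bars (division genes higher in both genotypes) stand highest for CHR (40.9%) and NF-Y box (68.2%), and all sets are close for E-box, AP-1 and GATA.

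Genes for the synthesis of nucleotides and proteins were higher by smaller amounts. Of 32 pyrimidine and purine synthesis genes, 30 were higher in both genotypes, with medians of 0.58 and 0.68. Ribonucleotide reductase, which makes deoxynucleotides, was higher in both subunits: Rrm1 read 8.03, 8.09, 9.45 and 9.63, and Rrm2 read 6.45, 6.09, 8.04 and 7.86. Umps, which makes UMP and also activates 5FU, differed by 1.05 and 1.25. Tyms, the thymidylate synthase that 5FU metabolites block, read 8.69, 8.59, 9.35 and 9.25, a difference of 0.66 in each genotype that did not reach 2-fold.

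Every measured proteasome gene above the floor, 32 of 32, was higher in both genotypes, with medians of 0.50 and 0.73, and Psmd13 and Psmd14 of the regulatory particle passed 2-fold. Aminoacyl-tRNA synthetases were higher for 18 of 19 (medians 0.44 and 0.54), ribosome biogenesis genes for 38 of 43 (0.32 and 0.53), chaperonin and heat shock genes for 22 of 25 (0.46 and 0.74) and splicing factors for 21 of 25 (0.39 and 0.58). For comparison, 37% of all genes were higher in both. The Sm-like proteins Lsm2 (1.03 and 1.43) and Lsm5 (1.42 and 1.64), which bind U6 RNA, were the splicing genes past 2-fold, with Lsm5 below the floor at basal in both genotypes. The Myc network, some members of which drive many of these genes in growing cells while others oppose them, did not share the direction. Of its 11 genes, 6 were lower and 4 higher in both genotypes, and Mycn read 8.62 in both basal arrays and 7.93 in both day 8 arrays.

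Mitochondrial genes were higher by modest amounts in nearly all members. Of 59 oxidative phosphorylation genes, 57 were higher in both genotypes (medians 0.48 and 0.70), but Uqcrq of complex III alone was at least 2-fold higher in both. Mitochondrial ribosome genes were higher for 40 of 46, with none lower in both and medians of 0.41 and 0.69. In the tricarboxylic acid cycle list, Idh3a, the catalytic subunit of NAD-dependent isocitrate dehydrogenase, read 7.96, 7.94, 9.26 and 9.47, and Me2, the mitochondrial malic enzyme, read 7.89, 7.78, 9.18 and 9.27. Dld, a subunit shared by the pyruvate and oxoglutarate dehydrogenases, was also at least 2-fold higher, whereas Pdk2, a kinase that restrains pyruvate dehydrogenase, was lower by 0.65 and 0.88. Glycolysis genes had no such common direction, with 9 of 21 higher, 7 lower and medians of 0.21 and 0.05. Cpt1c, of the carnitine palmitoyltransferase family, was the fatty acid oxidation gene at least 2-fold lower in both (-1.38 and -1.49), against 11 of 20 that were higher.

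Outside division, the higher genes included surface and cytoskeletal genes of committed blood cells. Lgals1, which encodes the secreted lectin galectin-1, read 7.53, 6.96, 11.01 and 11.17, and both day 8 values lay more than 3 log2 units above basal. The limma standard error of its difference was 0.22. Cd48, a SLAM family surface protein that long-term stem cells lack and most progenitors carry, read 4.99, 5.15, 9.96 and 9.49, so both basal values lay under the floor. Its binding partner Cd244a (3.17 and 1.83), its relative Ly9 and the tetraspanins Cd53 and Tspan2 made 5 of 29 SLAM and tetraspanin genes at least 2-fold higher, with none lower by as much. Over the whole list the medians were 0.10 and 0.08, and the AMKO value turned to -0.07 under quantile normalization.

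Of 29 genes of multipotent and lymphoid-primed progenitors, 22 were higher in both genotypes and 7 by at least 2-fold. The 7 were Cd48, Plac8, Tespa1, Tyrobp, Cd53, Cd69 and Emb. The list's medians were 1.28 in Ctrl and 0.34 in AMKO, and Tyrobp, an adaptor of myeloid and natural killer cells, shows the gap at 4.57 and 1.4. Flt3, the cytokine receptor that marks multipotent progenitors, read 6.49, 6.63, 8.06 and 7.15 and did not reach 2-fold in AMKO. Cd34, lost by the most dormant mouse stem cells, read 9.35, 9.72, 10.38 and 10.36.

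Integrin subunits were split between partners of different cells. The leukocyte integrin chains Itgb2 (7.66, 7.25, 9.61 and 8.75) and Itgal (2.38 and 1.24), which pair to form LFA-1, were at least 2-fold higher. Itgb3 (9.19, 9.47, 6.72 and 7.02) and Itga2b (-1.04 and -1.55), which pair in platelets, were at least 2-fold lower. The junction and adhesion genes Cldn5, Jam2 and Alcam were lower as well, and Vcam1 was higher from values under the floor. Actin cytoskeleton genes of leukocytes were higher for 34 of 41, with 6 past 2-fold: Lgals1, Vim, S100a4, S100a6, Anxa1 and Anxa2. Anxa1 is also a neutrophil gene, with differences of 2.83 and 1.25.

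Several genes of the 20 highest were in no list. Gem, a small GTPase of the RGK family that restrains calcium channels, read 7.80, 7.84, 9.97 and 10.27. Il12rb2, a chain of the interleukin-12 receptor, read 5.63, 5.61, 7.47 and 7.74. Mc5r, a melanocortin receptor, read 7.55, 7.43, 9.36 and 9.54. In all 3, the genotypes lay within 0.5 of each other at each time. Emilin2, a matrix glycoprotein, read 6.71, 6.83, 9.28 and 8.69, and Aunip, a partner of Aurora A, read 7.27, 6.58, 9.35 and 9.39. The receptors for nucleotides P2ry13 and P2ry14, which are neighbours on chromosome 3, were both among the higher genes.

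Long-term stem cell genes were the list with the most members among the lower genes. Of 47 above the floor, 38 were lower in both genotypes and 12 by at least 2-fold, with medians of -0.84 and -0.66, and 5 were higher by any amount. The list gathers genes known for their expression in long-term stem cells, and the 12 are of mixed function. Sult1a1, a sulfotransferase that conjugates phenols, read 9.67, 10.17, 5.81 and 6.19. Trim47, a ubiquitin ligase of the TRIM family, read 8.80, 9.30, 6.89 and 7.09. Clec1a, a C-type lectin receptor, read 8.30, 7.93, 5.26 and 5.80. These 3 genes were named for their rank on the difference shared by both genotypes, and at day 8 Clec1a lay under the floor in Ctrl. The transcriptional corepressor Runx1t1 (-3.25 and -1.41), the stress factor Nupr1 (-1.78 and -1.56), transglutaminase 2 (Tgm2, -1.59 and -1.22) and the adhesion molecule Alcam (-1.63 and -1.65) were others. Procr, the protein C receptor used to isolate stem cells, read 9.03, 8.83, 7.39 and 8.13, and Meis1, a homeobox partner of Hox proteins, read 11.55, 11.59, 10.78 and 10.89, neither of which reached 2-fold in both.

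Hox genes, which encode the homeobox factors that set position in the embryo and are active in immature blood cells, were lower in most members that passed the floor. Of 19 Hoxa and Hoxb genes measured, 14 passed it; 11 of these were lower in both genotypes and 3 had no common sign. At least 2-fold lower were Hoxb3, Hoxb4, Hoxb5, Hoxb6, Hoxa3 and Hoxa6. Hoxb6 read 9.08, 9.48, 6.03 and 6.73 and differed far more than its neighbours in the cluster: Hoxb4 read 8.41, 8.62, 6.86 and 7.18, and Hoxb3 read 7.83, 7.91, 6.51 and 6.73. These 4 Hoxb genes on chromosome 11 were the longest run of adjacent lower genes, together with a run of 4 olfactory receptor genes on chromosome 7.

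In the TGF-beta and BMP pathway, which keeps stem cells from dividing, 15 of 33 genes were lower and 9 higher in both genotypes, 5 at least 2-fold lower and 1 at least 2-fold higher. The medians were near 0 (-0.07 and -0.09, the latter 0.02 after centring). Bmp4, a BMP ligand, read 7.85, 7.03, 4.89 and 5.22 and lay under the floor at day 8. Tgfb3, another ligand, differed by -1.83 and -1.30. The latent TGF-beta binding proteins, which store the ligand in the matrix, were lower for Ltbp3 (10.19, 10.04, 8.23 and 8.13) and Ltbp4 (7.97, 7.45, 5.87 and 5.82). Neo1, a receptor of netrins and of repulsive guidance molecules that also assists BMP signals, read 7.95, 8.04, 5.72 and 6.26. Against these 5, the BMP target Id1 was at least 2-fold higher (1.17 and 1.43), and the ligand Tgfb1 was higher by 0.74 and 0.94. Inha, the alpha subunit of inhibin, was lower too, at 8.89, 9.12, 6.96 and 7.14.

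Megakaryocyte and platelet genes were lower in both genotypes for 19 of 23, with medians of -0.56 and -0.53. Mmrn1, the platelet protein multimerin 1, read 11.50, 11.32, 9.08 and 9.84, and Vwf, von Willebrand factor, read 9.39, 9.48, 8.04 and 8.44. Pf4, platelet factor 4, differed by only -0.35 and -0.29. Endothelial genes, several of which stem cells also express, were lower for 15 of 21, and Cldn5, a tight junction claudin, read 8.85, 9.06, 5.86 and 5.62. Kdr (-2.86 and -1.33), Robo4 (-1.59 and -1.13) and Ramp2 (-1.17 and -1.06) were lower as well, whereas Egfl7 was higher by 0.60 and 0.78 and Pecam1 by 0.04 and 0.53. The endothelial cadherin Cdh5 read 5.61, 6.09, 6.32 and 5.62, close to the floor in every array.

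Regulators of chromatin, of quiescence and of the clock were lower in single members. The polycomb methyltransferases went opposite ways: Ezh1, the form of resting cells, read 10.67, 10.83, 9.84 and 9.56, while Ezh2, the form of dividing cells, read 9.93, 9.85, 10.93 and 10.82. Pcgf2, a polycomb ring finger protein, was lower by more than 2-fold (-1.18 and -1.73). Egr1, an early growth response factor that holds stem cells in quiescence, read 8.57, 8.92, 6.82 and 7.73. Txnip, which restrains glucose uptake and binds thioredoxin, read 12.29, 12.08, 11.22 and 11.20. The quiescence list as a whole had 13 of 31 lower and 7 higher, where 33.7% of all genes were lower and 37% higher in both. Its medians were -0.01 and -0.13, and 0.03 and -0.02 after centring. Among its higher members were Tgfbr1 (0.94 and 0.66) and Rbl1 (0.59 and 1.24). Of 17 clock genes, 10 were lower in both genotypes and 3 higher, none by 2-fold in both. Per1 (10.10, 10.40, 8.78 and 9.41), Per3 (-0.94 and -0.66) and Npas2 (-0.81 and -0.55) were among the lower ones. Arntl (0.46 and 0.28) and Cry1 (0.88 and 0.35) were among the higher. The hour of sorting is not given in the sources used here, and its part in the clock genes was not tested.

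Of the genes lowest in both genotypes that were in no list, Art4, the Dombrock blood group ADP-ribosyltransferase, read 10.39, 10.67, 8.14 and 8.39. Cysltr2, a leukotriene receptor, read 9.48, 9.74, 7.49 and 7.65. Adgrg2, an adhesion G protein-coupled receptor, read 8.73, 8.69, 6.72 and 6.01. All 3 stayed above the floor at day 8 and kept a gap of more than 1 log2 unit between the times. Loxl3, a lysyl oxidase of the matrix, read 8.50, 8.94, 6.42 and 6.81, and Tns2, a tensin of focal adhesions, read 8.36, 8.55, 5.70 and 6.01. Plscr2 (-2.16 and -3.06) and Gstm2 (-2.65 and -1.92) have close paralogs whose probe sets can share signal. Osmr, the oncostatin M receptor, read 6.98, 7.33, 4.66 and 5.27 and so lay under the floor at day 8. Pygm, the muscle glycogen phosphorylase, read 10.16, 9.23, 6.42 and 6.75, and it stands in the muscle list that was high in the Ctrl basal array.

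Of all genes above the floor, 1.98% were at least 2-fold lower in both genotypes and 1.96% at least 2-fold higher. Among small RNA genes, 10 of 165 microRNA genes above the floor were at least 2-fold lower in both genotypes and 2 higher. Of 66 snoRNA genes, 4 were lower and 1 higher by as much. The lower ones included 3 adjacent genes on chromosome 14, Mir17, Mir18 and Mir19a, of the miR-17 cluster, which is made from 1 primary transcript and is known to promote proliferation; the cluster was singled out after its values were seen. The mature sequences from RefSeq (GRCm38.p6) are shown because the 4 arms printed hold 3 different seeds, the part of a microRNA that pairs with its targets. Capitals mark the seed, bases 2 to 8.
miR-17-5p: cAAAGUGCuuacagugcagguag
miR-18a-5p: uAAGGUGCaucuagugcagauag
miR-19a-3p: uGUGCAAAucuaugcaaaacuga
miR-20a-5p: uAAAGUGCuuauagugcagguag

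miR-17-5p (chr14:115043684-115043706, plus strand) and miR-20a-5p (chr14:115044183-115044205, plus strand) share the seed AAAGUGC. Mir17 read 6.58, 6.70, 4.75 and 4.59, Mir18 read 7.52, 7.97, 5.53 and 5.47, and Mir19a read 6.72, 6.65, 4.51 and 4.52. Both day 8 values were under the floor for Mir17 and Mir19a and near it for Mir18. Mir20a read 8.08, 7.83, 5.66 and 6.94 and so was more than 2-fold lower in Ctrl alone (-2.42 and -0.89). A probe set of this kind reads the hairpin or the transcript around it and not the mature microRNA, and no value was at hand for the host gene Mir17hg, for Mir19b-1 or for Mir92-1. Whether mature microRNAs differed was not measured.

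Members next to each other on a chromosome were more frequent than among all genes. Counting genes above the floor in chromosome order, 27 of 276 higher genes (9.78%) and 37 of 279 lower genes (13.3%) had a neighbour in the same set. For comparison, 3.85% of 14045 placed genes had a neighbour among the members. Several runs were gene families, whose copies can share probe signal: histone genes on chromosome 13, Ms4a6b and Ms4a6c, Rnase6 and Rnase12, the olfactory receptors, Plscr2 and Plscr4, Robo3 and Robo4, and Apol7b and Apol7e. Others were unlike genes, among them Hmox1 with Mcm5 and Pbk with Esco2. Igf2r (7.04, 6.90, 5.98 and 5.88) and Airn, the antisense RNA that silences it on the paternal copy and overlaps it, were both at least 2-fold lower.

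Interferon-induced and inflammatory genes had no common direction. Interferon-induced genes were higher for 14 of 34 and lower for 12, with medians of -0.02 and 0.19, the former 0.02 after centring. Oas2, which makes the activator of RNase L, was the member at least 2-fold higher in both (6.44, 7.22, 8.20 and 8.62). Inflammatory signalling genes were lower for 11 of 28 and higher for 10, and Ccl4 and Cish were at least 2-fold lower. Cish, a target and inhibitor of cytokine receptor signals through STAT5, differed by -1.54 and -1.83 at the probe set used and by -0.68 and -0.86 over the mean of its probe sets. Immediate early genes were lower for 14 of 27 and higher for 3, with medians of -0.32 and -0.22. Chaperones and unfolded protein response genes of the endoplasmic reticulum were higher for 14 of 25 and lower for 3, with medians of 0.24 and 0.25. Of the Notch and Wnt pathway, 11 of 36 genes were higher and 13 lower, with none at least 2-fold different in both genotypes.

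**Figure D5:**
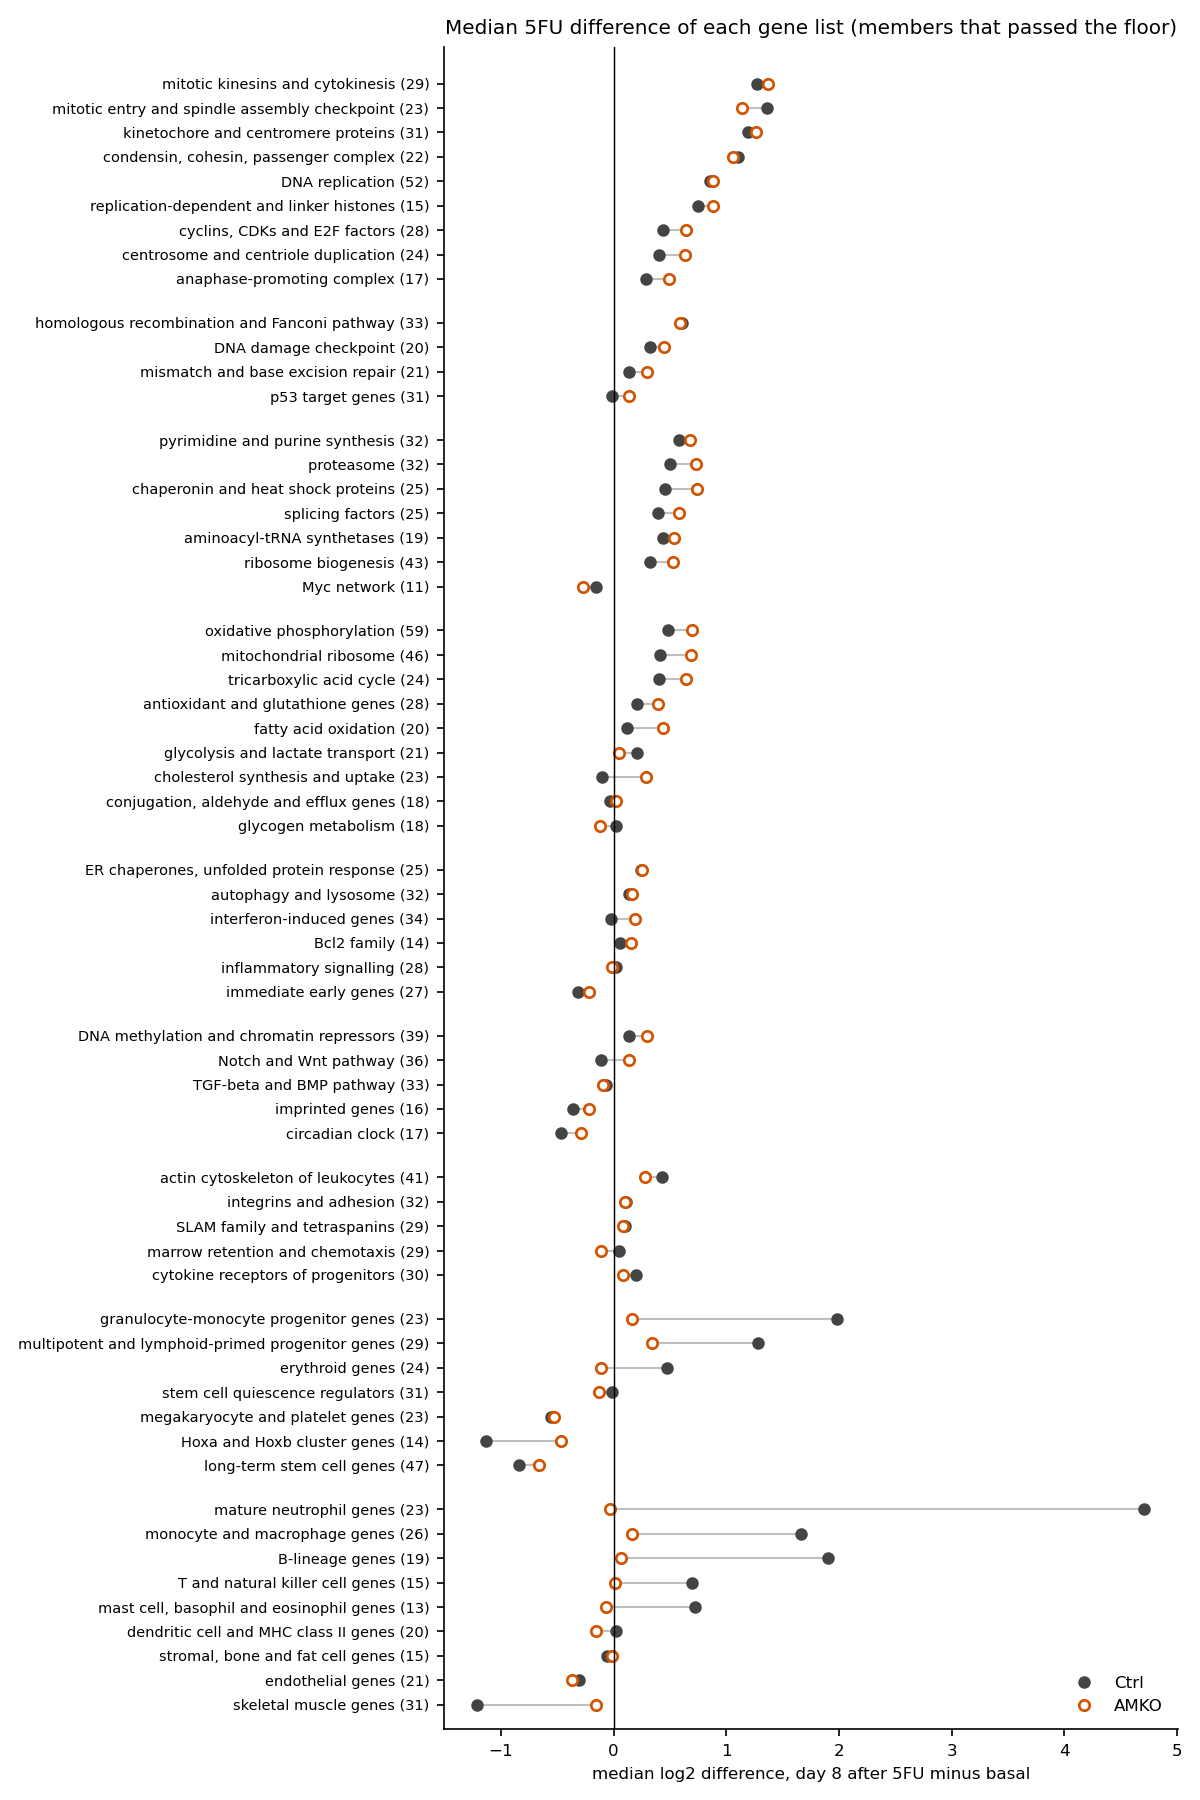
Median log2 difference (day 8 minus basal) of each gene list in Ctrl (filled) and AMKO (open), with the number of members above the floor in brackets and lists grouped by function. In AMKO the mitosis lists lie furthest to the right and the long-term stem cell list furthest to the left (-0.66); in Ctrl the lists of mature neutrophil (4.71), granulocyte-monocyte progenitor (1.98), B-lineage (1.9) and monocyte genes (1.66) lie to the right of every mitosis list, and the Hox (-1.13) and muscle lists (-1.21) to the left of the stem cell list (-0.84).

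Markers of other cells were set against the shared differences. Of 181 genes above the floor in 9 lists of other cell types, 9 were at least 2-fold higher and 6 at least 2-fold lower in both genotypes. Both shares were above those of all genes over the floor, 1.96% higher and 1.98% lower. Without these lists and those of granulocyte-monocyte and erythroid genes, the counts over all genes were 267 higher and 273 lower. For mature neutrophil genes, S100a8, Cxcr2 and Anxa1 were at least 2-fold higher in both genotypes, out of 23. S100a8 read 4.90, 4.27, 10.69 and 5.48 and so was at the floor in AMKO at day 8. The defining genes Camp (5.05, 4.2, 12.29 and 4.13) and Ltf (5.28, 5.23, 11.74 and 5.20) were under the floor in every array but Ctrl day 8. Cd3e and Ncr1, which define T and natural killer cells, and the macrophage gene Adgre1 were under the floor in all 4. C1qa, the other macrophage gene fixed for checks, was above the floor in every array. It read 6.19, 6.09, 7.11 and 6.87 and was higher by 0.92 and 0.78. In AMKO at day 8 the neutrophil sum was 11.41, against 11.61 at basal, the T and natural killer sum 10.78 against 10.18, and the monocyte and macrophage sum 11.54 against 11.06. Ms4a6c and Ms4a6b, of the monocyte list, were higher by similar amounts in both genotypes (3.63 and 3.72, and 1.69 and 1.55). The part that cells of these types had in the leukocyte genes shared by both genotypes was not tested.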

How the data were processed

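RNA of sorted LSK cells was measured on 4 Affymetrix arrays, 1 per group. Per the labels' protocols, RNA was purified on columns and labelled with biotin as cRNA for Affymetrix arrays. The authors' deposited table holds 1 value per probe set and array, read here as log2 because the values lie between 1.99 and 13.43. How the background was corrected and arrays normalized is not given in the sources used here. The deposited log2 values were used without further scaling, and array medians were 5.43 to 5.55. Of 34472 probe sets, the platform annotation names 1 gene for 23521, several for 1814 and none for 9137. Symbols were updated for 23328 from RefSeq (GRCm38.p6). For the 1082 genes with several probe sets the one with the highest mean was used. The floor is the median of all values, and a gene was kept if any array reached it.

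The 5FU difference was taken within each genotype. Limma 3.58.1 in R 4.3.3 (lmFit, eBayes with a trend, prior of 2.62 degrees of freedom) was fitted with genotype and 5FU as terms, with two-sided Benjamini-Hochberg adjusted p-values, after it was tested on simulated data. The labels do not say whether arrays come from separate mice, so p-values measure only the spread between these arrays. In this fit that spread is the disagreement between the 5FU differences of Ctrl and AMKO. It can hold technical spread, a response that differs by genotype and the signals of single arrays, which cannot be told apart. The number of arrays limits the precision. The 61 gene lists hold 1771 genes, of which 1620 were measured and 1515 passed the floor. Genes and lists were chosen with earlier results of these data known, so list counts are descriptions. Named genes, without predicted genes, small RNAs and receptor families, were the 20 top and 20 bottom genes, ranked on the smaller of the 2 differences, with all arrays at the floor or above, 10 and 10 of those under the floor at 1 time, up to 4 members of each list in its direction and 2 against it, and fixed markers. Further list members past 2-fold are named to complete a count. P2ry14, the histone genes outside the histone list, the miR-17 cluster and the neighbouring genes were named after their values were seen.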

Additional observations from a re-analysis of the deposited data

Results flagged for a closer look

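For 7 of the marker genes fixed for checks that passed the floor, the 5FU difference had opposite signs in Ctrl and AMKO and was at least 2-fold in 1 of them, with 1 array behind each value, so the difference between the genotypes was not tested. Subtracting the Ctrl difference from the AMKO difference gave -7.31 for Camp (7.24 in Ctrl and -0.07 in AMKO), -6.49 for Ltf (6.46 and -0.03), -5.36 for Mpo (5.03 and -0.33) and -6.10 for Elane (5.75 and -0.35), all on the log2 scale and all genes of neutrophils or their precursors. It gave -2.28 for Cd79a of the B-cell receptor (2.23 and -0.05) and -3.86 for Xist (3.42 and -0.44). For Acta1, skeletal muscle actin, it was 3.06 (-2.54 and 0.52). The AMKO differences of Camp, Ltf, Cd79a and Xist lie between values under the floor, so their signs have no meaning there. Cdh5 (0.71 and -0.47) and Col1a1 (-0.18 and 0.15) also had opposite signs, with differences under 2-fold, and Adgre1 (1.2 and -0.07) was under the floor in all arrays.

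Outside the genes analysed, 4380 probe sets of no gene or of several genes passed the floor. Of these, 119 were at least 2-fold lower and 44 at least 2-fold higher at day 8 in both genotypes. There is no control for this count, and these probe sets were not named.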

How the results depend on the processing

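The counts of 276 higher and 279 lower genes were 243 and 301 after quantile normalization, which kept 236 and 265 of the same genes, and 329 and 224 after centring each array on its median. They moved beyond 1.5 times only with the size asked for (927 and 848 at 1.5-fold, 48 and 70 at 3-fold) or with a genotype left out: without 1 array, 660 to 706 genes were higher and 499 to 627 lower in the genotype that kept both. Requiring every day 8 array to pass every basal array gave 221 and 226. The limma count of 0 became 972 after quantile normalization, 161 after centring, 1293 with a floor at the 75th percentile (7.32), 1315 with robust estimation and 1823 without the genotype term. Leaving out 1 array gave 0 to 461, the 461 without the AMKO day 8 array, where the lone day 8 array is assumed to vary like the others. Fits that left out 1 array also had no genotype term, so their counts compare with the 1823 and not with the main count of 0. The 5 other alternatives (no floor, a floor on the mean, the mean of probe sets, no trend, without genes of other cell types) gave 0. Whether limma calls any gene therefore depends on the settings, and the cause was not tested. Of 35 list medians that were called, 0 reversed under the alternatives run. A reversal was counted for named genes only if they were at least 2-fold different in both genotypes. It was hardly possible for these, so its absence there shows little. For motif shares a reversal was not defined. In all, 81 of 416 list values, 619 of 2566 gene values and 15 of 98 motif shares moved by more than their limit. The labels number no replicates, so genotype is the only pairing, and the fit without its term is given above. Signal near the floor limits the 18 higher and 54 lower genes under it at 1 time.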
